A study of Homo sapiens with 12 samples.

Results

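The genes described are 10 members of the annexin and S100 families: ANXA1, ANXA2, ANXA3, ANXA4 and ANXA5, and S100A4, S100A6, S100A10, S100A11 and S100A14. They were taken by symbol from the 58302 genes of the deposited table, where each symbol had 1 row, and all 10 had a mean level high enough to test among the 10517 genes that did. The cells were DLD1, an established human colorectal cancer line of epithelial origin, at passage 5. They carried shNC, a control short hairpin RNA, or shNAT10, a hairpin against NAT10, the acetyltransferase that turns cytidine in RNA into N4-acetylcytidine (ac4C). For each hairpin there were 3 input libraries of total RNA, broken into pieces of 100 to 200 nt, and 3 libraries of the pieces bound by an ac4C antibody (12 libraries in all, read as 150 bp pairs). Whether replicates were separate cultures, how many hairpin sequences or clones were used, and any batch are not given in the sources used here; p-values measure only the spread between these samples.

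Annexins are cytosolic proteins that bind acidic membrane phospholipids when calcium rises, and they take part in membrane repair, vesicle traffic and the link between membrane and actin. S100 proteins are small EF-hand proteins that mostly act as dimers and change the activity of other proteins on binding calcium. Several S100 dimers bridge annexins: S100A10 holds ANXA2 in a stable complex at the plasma membrane of epithelial cells, and S100A11 binds the amino-terminal tail of ANXA1. All 10 symbols matched RefSeq. The 5 S100 members lie on the minus strand of chromosome 1 (GRCh38, RefSeq), in the region where most S100 genes cluster, while the annexin members are spread over chromosomes 2, 4, 9 and 15.

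Levels are in FPKM, fragments corrected for the length of the gene and the size of the library, as deposited for the 6 input libraries. The columns named for the control matched its libraries by title, and the other columns were taken as shNAT10 by elimination. Recovered fragments on genes numbered 2633371 to 2752708 in shNC and 1223231 to 1302077 in shNAT10-labelled libraries, so that shNC was on average 2.15 times deeper. In shNAT10-labelled libraries NAT10 itself was at 0, 28.1 and 31.4 FPKM, against 1.24, 3.95 and 2.89 for shNC. In replicates 2 and 3 it was thus above every shNC library, against the label, so every direction below is that of the label. For NAT10 the difference in mean log2(FPKM + 1), shNAT10 minus shNC, was 1.48 (SE 1.86, limma adjusted p = 0.754). Its groups overlapped through replicate 1, so neither a rise nor a fall of NAT10 was established. Of 8 colon epithelium markers, 8 were above 0 in at least 1 library. Their summed FPKM, mostly the keratins KRT8, KRT18 and KRT19, was 5067 to 5384 in shNC and 8108 to 8584 in shNAT10-labelled libraries. Summed over all tested genes, FPKM was also larger under that label, at 467350 to 531338 in shNC and 555712 to 710658 in shNAT10-labelled libraries. Of the 8 markers, 4 had a difference above 0 and 4 below 0, and 0 passed by limma (1, KRT8, at an unadjusted p under 0.05). KRT8, KRT18 and KRT19 were each higher in every shNAT10-labelled library than in any shNC library, as were 2.89% of all tested genes. KRT8 was at 3112, 3774 and 3294 in shNC against 5643, 5573 and 5866 (limma adjusted p = 0.598, by voom on recovered fragments 0.00336). EPCAM, the epithelial adhesion molecule, went the other way, as did 6.72% of all tested genes. It was lower in every shNAT10-labelled library (38.3, 80.3 and 128) than in shNC (226, 370 and 262), with a limma adjusted p of 0.754. The 8 leukocyte markers summed to 0 in every shNC library and to at most 2.29 in the others; CD3E, CD68, FCGR3A, LYZ and MS4A1 were at 0 in all 6. The 4 endothelial markers summed to 0 in shNC and to at most 1.44 in the others, with PECAM1 and CDH5 at 0 in all 6. The 8 fibroblast and muscle markers, all above 0 in some library, summed to 0 to 3.81 in shNC and 9.62 to 76.9 in shNAT10-labelled libraries. The highest sum was mostly TAGLN, at 68.9 in shNAT10 replicate 1, while ACTA2 led in replicate 2 and DCN in replicate 3. The part of this list, or of the epithelial one, in the differences below was not tested.

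No member passed the test between hairpins. By limma, 0 of the 10 had an adjusted p under 0.05 and 1, S100A11, had an unadjusted p under 0.05. Over all tested genes the shares were 0.19% and 3.7%. With both shNAT10-labelled libraries in which NAT10 stood above shNC left out, a choice made after the values were seen, shNAT10 replicate 1 stands alone against 3 shNC libraries and is assumed to vary as they do. Then again 0 of 10 passed, and 2 had an unadjusted limma p under 0.05, ANXA2 (-4.27) and ANXA4 (-3.09), against 11.7% of the 9745 genes tested there. The difference in mean log2(FPKM + 1), shNAT10 minus shNC, was above 0 for 3 members and below 0 for 7, with a median of -0.68, beside a median of -0.49 over all tested genes, of which 41.2% were above 0. For the 5 annexins the median was -0.59 and for the 5 S100 genes -1.10. In bulk RNA, fewer cells with a transcript and less of it per cell cannot be told apart.

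Replicates of 1 hairpin differed widely: for 9 of 10 members, ANXA4 being the exception, the log2 range within a group was larger than the difference between hairpins. The limma SE draws mostly on other genes of similar level (212.6 prior degrees of freedom), so it does not measure a gene's own spread alone. In order of median FPKM over the 6 libraries, the members ran S100A10 (61.4), S100A4 (57.6), ANXA2 (39.0), ANXA5 (8.71), S100A11 (7.70), ANXA4 (4.06), ANXA1 (2.16), S100A14 (1.43), ANXA3 (1.40) and S100A6 (1.17). Each neighbouring pair in that order had overlapping ranges, so the order is a description of medians. Of the 10, only S100A10, ANXA2 and S100A4 were above 0 in all 6 libraries. Members were listed at 0 in 4 of 30 values in shNC (13.3%) and 7 of 30 in shNAT10-labelled libraries (23.3%), against 32.4% and 43.9% over all tested genes. The library with the highest value held 28.7% of a member's summed FPKM for ANXA2 and 95.1% for S100A14, with a median of 53.0%, beside 67.0% over all tested genes.

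**Figure D1:**
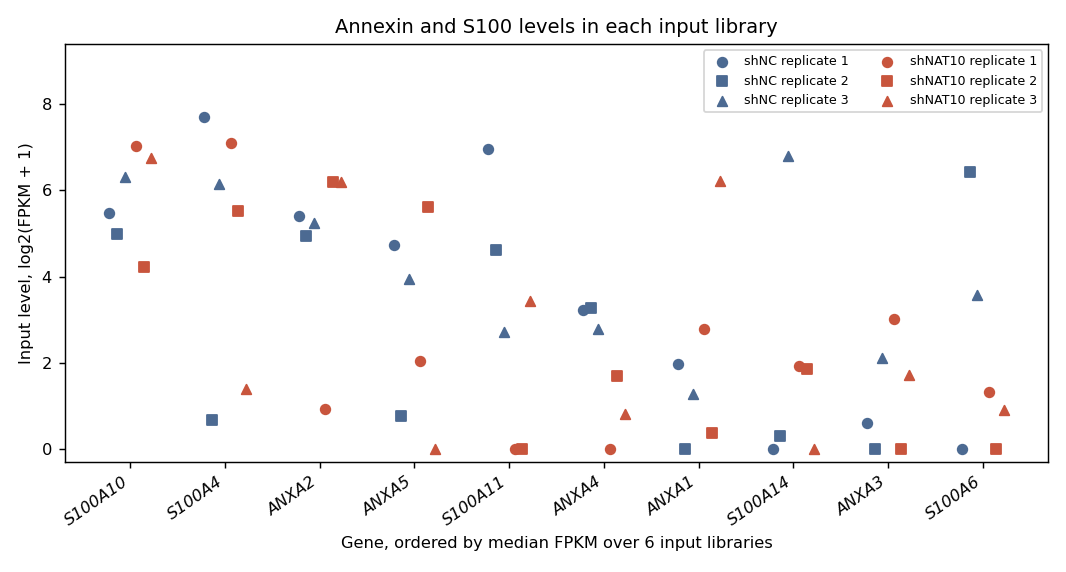
Level of each member in each input library as log2(FPKM + 1), with genes ordered by median FPKM; blue marks shNC, red the shNAT10-labelled libraries, and marker shape the replicate. ANXA4 is the only gene whose red points all lie under its blue points, and several genes, such as S100A14 and ANXA1, have 1 library far above the rest.

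ANXA2 (ENSG00000182718, chr15:60347151-60397986, minus strand) encodes annexin A2, which binds membranes and actin and carries S100A10. Its FPKM was 41.1, 29.8 and 36.8 in shNC and 0.897, 72.6 and 71.8 in shNAT10-labelled libraries, from 1227, 865 and 1114 and from 11, 960 and 759 fragments. The shNC libraries were close together. Those labelled shNAT10 lay on both sides of them, with replicate 1 far below and replicates 2 and 3 above. The log2 difference was -0.76 (SE 1.51, n = 3 per group, limma adjusted p = 0.867). Without shNAT10 replicate 1 it was 1.00 (limma adjusted p = 0.782). The processed copy ANXA2P2 had 0 to 4.91 FPKM, ANXA2P1 at most 1.44 and ANXA2P3 0, and reads of such copies and ANXA2 can be exchanged in counting.

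S100A10 (ENSG00000197747, chr1:151982915-151993859) encodes the S100 protein that has lost calcium binding and stays in the active shape, and it was above 0 throughout. Its FPKM was 43.9, 30.6 and 78.9 in shNC and 130, 17.7 and 107 in shNAT10-labelled libraries, from 229, 155 and 417 and from 279, 41 and 198 fragments. Replicates 1 and 3 labelled shNAT10 were above all shNC libraries and replicate 2 was below them. Between hairpins the log2 difference was 0.41 (SE 1.29, limma adjusted p = 0.926), and without shNAT10 replicate 1 it was -0.10 (0.978).

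Set against each other per length, ANXA2 and S100A10 had nearly the same FPKM in shNC replicates 1 and 2. They were furthest apart in shNAT10 replicate 1. The log2 ratio of ANXA2 over S100A10, each as FPKM + 1, was -0.09, -0.03 and -1.08 in shNC and -6.11, 1.97 and -0.57 in shNAT10-labelled libraries. S100A10 was the higher in 5 of 6 libraries, and ANXA2 in shNAT10 replicate 2. The mean over the 6, with the hairpin ignored, was -0.99 ± 2.72 (SD, n = 6), not distinguishable from 0. Its exact sign-flip permutation p was 0.531 (two-sided, smallest possible 0.0312), and 0.562 when adjusted over the 2 pairs. Between hairpins the mean ratio was -0.40 ± 0.59 (SD, n = 3) and -1.57 ± 4.13 (SD, n = 3). That is a difference of -1.17 (exact permutation p = 0.8, two-sided, smallest possible 0.1; adjusted 0.8), and without shNAT10 replicate 1 it was 1.10. Which partner was higher depended on dividing by gene length. Whether the length used was that of the transcripts present is not given in the sources used here. Near-equal FPKM is thus no measure of equal transcript numbers. The length that made the fragments whole was 8824 nt for ANXA2 and 1543 nt for S100A10, and in fragments ANXA2 was the higher in 5 of 6 libraries (mean log2 ratio 1.37, exact sign-flip permutation p = 0.375).

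ANXA1 (ENSG00000135046, chr9:73151865-73170393, plus strand) encodes annexin A1, a glucocorticoid-induced protein that dampens inflammation through formyl peptide receptors. Its FPKM was 2.92, 0 and 1.41 in shNC and 5.84, 0.293 and 73.4 in shNAT10-labelled libraries, from 45, 0 and 22 and from 37, 2 and 401 fragments. Replicate 3 labelled shNAT10 stood far above the other 5 libraries, and the groups overlapped. This gave a log2 difference of 2.04 (SE 1.89, limma adjusted p = 0.754), and without that library it was 0.49.

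S100A11 (ENSG00000163191, chr1:152032506-152037004) encodes calgizzarin, which is active in cell growth and membrane repair. Its FPKM was 123, 23.7 and 5.58 in shNC, from 284, 53 and 13 fragments. In the shNAT10-labelled libraries it was listed at 0, 0 and 9.82, from 0, 0 and 8 fragments. In counting error alone, a count of 0 allows up to 3 fragments, or FPKM 3.17 and 2.94 in replicates 1 and 2, which is under every shNC value. Replicate 3, however, was above shNC replicate 3, so the groups overlapped. The log2 difference was -3.62 (SE 1.82, 95% interval -7.21 to -0.04), with an unadjusted p of 0.0477 and a limma adjusted p of 0.754. Its size rests on the pseudocount, at -5.79 with 0.1 and -8.00 with 0.01. Whether the unadjusted limma p was under 0.05 depended on the processing. It was 0.0275 with a pseudocount of 0.1, but 0.0678 after quantile normalization, 0.104 by voom on recovered fragments and 0.224 without shNC replicate 1. Lower values with an unadjusted p under 0.05 were found for 2.32% of all tested genes. The copies S100A11P1 and S100A11P2 were at 0 in all 6 libraries.

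By FPKM, ANXA1 and S100A11 stood in opposite order under the 2 hairpins, but the difference in their ratio did not pass the test. The log2 ratio of ANXA1 over S100A11 was -4.99, -4.63 and -1.45 in shNC and 2.77, 0.37 and 2.78 in shNAT10-labelled libraries. S100A11 was thus the higher in all 3 shNC libraries and ANXA1 in all 3 others, with no overlap. Of single tested genes, 9.61% had groups that did not overlap, and the share for ratios of gene pairs was not counted. In shNAT10 replicate 2, however, the genes had only 2 and 0 fragments, which counting error alone cannot put in order. The mean was -3.69 ± 1.95 (SD, n = 3) against 1.98 ± 1.39 (SD, n = 3), a difference of 5.66 (exact permutation p = 0.1, two-sided, the smallest that 3 against 3 can give; adjusted over the 2 pairs 0.2). Leaving out 1 library at a time, the difference stayed between 5.01 and 6.78, and with a pseudocount of 0.1 or 0.01 it was 8.64 or 11.9. Over all 6 libraries, with the hairpin ignored, the mean ratio was -0.86 ± 3.45 (SD, n = 6). Its exact sign-flip permutation p was 0.562 (adjusted 0.562). That mean averages groups of opposite sign and describes neither. In recovered fragments, with lengths of 4561 and 680 nt, the ratio was -2.63, -5.75 and 0.72 against 5.25, 1.58 and 5.48, again with no overlap, though ANXA1 was then the higher in shNC replicate 3 as well.

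**Figure D2:**
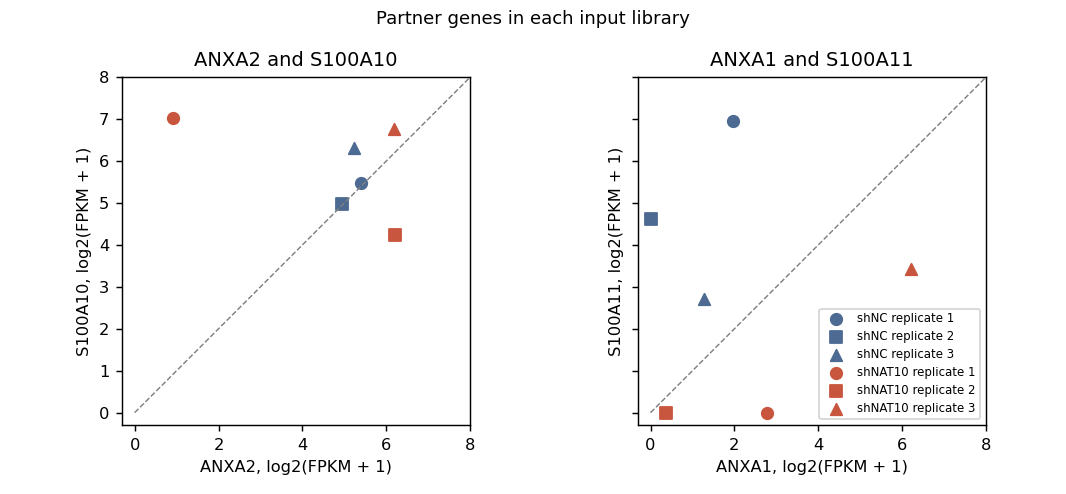
Partner genes in each input library, with the annexin on the horizontal axis and its S100 partner on the vertical axis, both as log2(FPKM + 1); the dashed line marks equal levels. For ANXA1 and S100A11 the shNC libraries lie above the line and those labelled shNAT10 below it, while for ANXA2 and S100A10 the red points lie on both sides.

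ANXA4 (ENSG00000196975, chr2:69643808-69827112, plus strand) encodes an annexin abundant in secretory and absorptive epithelia. Its FPKM was 8.35, 8.68 and 5.89 in shNC and 0, 2.24 and 0.756 in shNAT10-labelled libraries, from 312, 315 and 223 and from 0, 37 and 10 fragments. It was the 1 member of 10 whose groups did not overlap; among all tested genes 9.61% had groups that did not overlap, 6.72% in this direction. Between hairpins the log2 difference was -2.26 (SE 1.87, limma adjusted p = 0.754), and -4.48 by voom on recovered fragments (limma adjusted p = 0.506). By voom, too, 0 of 10 members passed, against 0.903% of all tested genes.

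ANXA5 (ENSG00000164111, chr4:121667946-121696980, minus strand) encodes the annexin used to stain exposed phosphatidylserine on dying cells. Its FPKM was 25.5, 0.702 and 14.3 in shNC and 3.08, 48.4 and 0 in shNAT10-labelled libraries. Each group ran from few fragments to many, 7 to 262 in shNC and 0 to 220 in the others. This gave a log2 difference of -0.59 (SE 1.84, limma adjusted p = 0.926), and it was 0.20 without shNC replicate 1 and 0.68 without shNAT10 replicate 3. ANXA3 (ENSG00000138772, chr4:78551770-78610447, plus strand), a less abundant annexin here, had 0.519, 0 and 3.30 against 7.02, 0 and 2.28. These came from at most 58 fragments, and the log2 difference was 0.67 (SE 1.71, limma adjusted p = 0.905).

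S100A4 (ENSG00000196154, chr1:153543621-153545806) encodes a partner of non-muscle myosin that is linked to cell migration and metastasis. Its FPKM was 208, 0.594 and 70.3 in shNC and 136, 44.9 and 1.63 in shNAT10-labelled libraries, from 723, 2 and 247 and from 194, 69 and 2 fragments. Each group thus held 1 library with 2 fragments and others far above it, and the log2 difference of -0.17 (SE 1.55, limma adjusted p = 0.979) had no settled sign. It was 1.26 without shNC replicate 1 and -2.26 without shNC replicate 2. The gene span overlaps that of S100A5, which was at 0 in all 6 libraries.

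S100A6 (ENSG00000197956, chr1:153534599-153535991) encodes calcyclin, an S100 protein of proliferating cells. Its FPKM was 0, 85.3 and 10.8 in shNC and 1.48, 0 and 0.860 in shNAT10-labelled libraries, resting there on 2, 0 and 1 fragments. The log2 difference was -2.60 (SE 1.89, limma adjusted p = 0.754), and the groups overlapped through shNC replicate 1. S100A14 (ENSG00000189334, chr1:153614255-153616325) encodes an epithelial S100 protein with weak calcium binding. Its FPKM was 0, 0.238 and 110 in shNC and 2.82, 2.61 and 0 in shNAT10-labelled libraries. The shNC replicate 3 value came from 480 fragments, where no other library had over 5. Between hairpins the log2 difference was -1.10 (SE 1.89, limma adjusted p = 0.834), and it was 1.11 without that library.

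**Figure D3:**
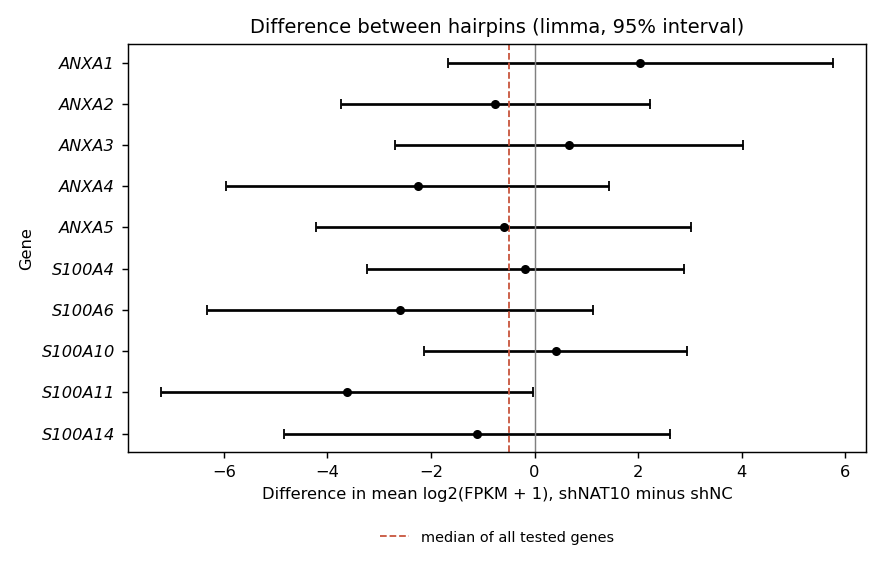
Difference in mean log2(FPKM + 1), shNAT10 minus shNC, for each member, with limma's 95% interval (3 libraries per group); the solid line marks 0 and the dashed line the median of all tested genes, -0.49. S100A11 has the lowest value, -3.62, and ANXA1 the highest, 2.04, and S100A11 alone has an interval that leaves out 0, before adjustment.

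Other genes of both families were mostly at 0 or low. Of 8 other annexins, 5 were at 0 in all libraries (ANXA8, ANXA8L1, ANXA9, ANXA10 and ANXA13), and 0 of the 3 tested passed by limma in either direction (0 at an unadjusted p under 0.05; median log2 difference -0.29). The most abundant was ANXA11, a carrier of RNA granules on lysosomes, at FPKM 31.2, 9.87 and 22.6 against 52.2, 20.5 and 30.3. Of 16 other S100 genes, with the S100P-binding protein S100PBP counted among them, 10 were at 0 in all libraries, and 0 of the 5 tested passed (0 unadjusted; median -0.25). S100P, an S100 protein of gut and pancreatic tumours, was the most abundant, at 0.231, 0 and 78.7 against 56.8, 0 and 0. Among 20 known binding partners, 0 of 12 tested passed (0 unadjusted; median 0.89). The most abundant was the calpain small subunit CAPNS1, at 32.7, 41.7 and 5.87 against 62.1, 107 and 126. Among 12 calmodulin and other EF-hand genes, 0 of 8 tested passed (0 unadjusted; median -0.13), with the calmodulin gene CALM3 at 60.1, 71.1 and 34.4 against 38.7, 73.3 and 91.7.

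As a description of pattern, 439 genes were above 0 in all 6 libraries with a mean FPKM of at least 100. Those whose log2 levels followed ANXA2 most closely were PRR19 (Pearson r = 0.99), the mitochondrial tRNA gene MT-TP (0.99) and the antisense RNA Z83844.2 (0.99). For S100A10 they were NOP16 (0.98), AL671883.2 (0.97) and AL807752.3 (0.97). Each r is over 6 libraries that share their depth and scaling across genes. The ANXA2-like genes shared its low value in shNAT10 replicate 1, where PRR19 had 0.559 against 79.7 or more elsewhere.

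The second file was the authors' deposited table of 2364 differential ac4C peaks. It held 4 peaks in 3 of the 10 members (30.0%), S100A10, S100A11 and S100A14, and 0 in the 5 annexins, S100A4 and S100A6. Among all tested genes 15.4% had a peak, and 19.1% of those coding for protein. Peak values below are the authors' own. The hairpin in the numerator of the log2 fold change, the pooling of replicates and the scaling of the fold are not given in the sources used here.

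In S100A10, the authors' deposited table placed 1 peak at the very end of the transcript, chr1:151982915-151983063 (149 nt, minus strand, 3' UTR), whose last base is the 3' end of the RefSeq gene. It had a fold enrichment of 88, the 289th highest of 2364, where the median was 10.5. Its log10 p of the peak call was -19.5, only the 1455th lowest. Its log2 fold change was -3.23, with a log10 FDR of -1.44, the 2248th lowest of 2364. The other S100A10 peak, chr1:151983123-151983271 (149 nt, coding sequence), lay 208 nt from the 3' end and had a fold of only 1.31, which ranked 2356th. Its log10 p of the peak call was -2.58, ranked 2354th. The deposited log2 fold change of this weak peak was -5.88, with a log10 FDR of -12.5. Both S100A10 peaks thus had the sign of 61.7% of all deposited peaks, and the fainter peak had the larger change.

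S100A11 had the opposite sign. Its deposited peak spanned chr1:152032772-152033743 on the minus strand in 2 blocks of 52 and 96 nt, in coding sequence. The fold enrichment was 2.79, under the median, while the log2 fold change was 7.43 with a log10 FDR of -128, the 39th lowest of the deposited table. This is the gene whose input was listed at 0 in 2 shNAT10-labelled libraries. How far the deposited change depends on input was not tested. In S100A14 the deposited peak was chr1:153614730-153614878 (149 nt, minus strand, 3' UTR). It had a fold of 9.19, a log2 fold change of -3.04 and a log10 FDR of -2.13. The input of S100A14 was 480 fragments in shNC replicate 3 and at most 5 in any other library. Here, too, the dependence of the change on input was not tested. The authors counted 1 site of the repeated CXX motif in the S100A14 peak, at position 153614807, and 0 in the S100A10 and S100A11 peaks. At least 1 was counted in 62.6% of all deposited peaks.

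**Figure D4:**
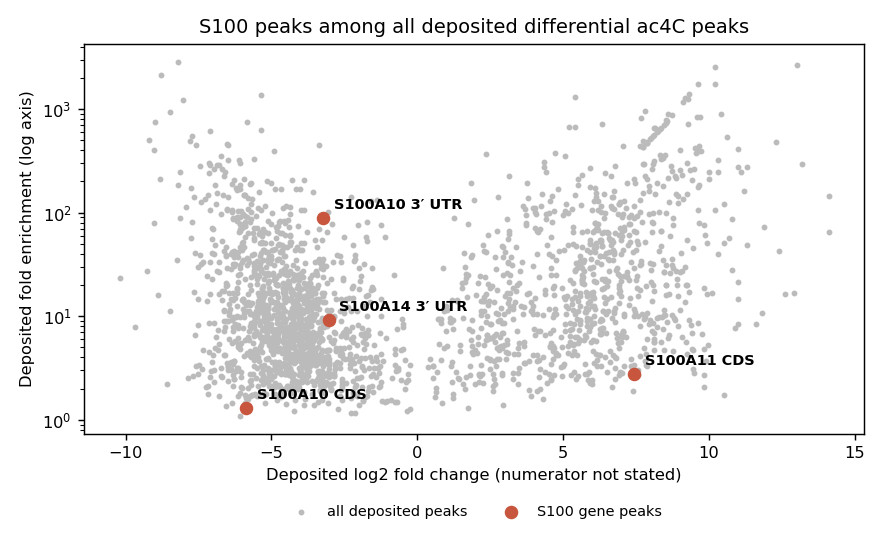
Fold enrichment (log axis) against log2 fold change of the 2364 peaks in the authors' deposited table, with the 4 S100 peaks in red. The S100A10 and S100A14 peaks lie at negative changes, from -5.88 to -3.04, and the S100A11 peak at 7.43 with a low fold of 2.79.

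Among the related lists, the authors' deposited table held a peak in 1 of 8 other annexins (ANXA11), 0 of 16 other S100 genes, 6 of 20 binding partners and 2 of 12 calmodulin and EF-hand genes. These lists include genes at 0 in all libraries. Only 3, 5, 12 and 8 of their genes were tested for level, and every listed gene with a peak was among those. Over all tested genes the share with a peak was 15.4%, and 19.1% for those coding for protein. Whether any list departs from these shares was not tested. The ANXA11 peak was chr10:80155655-80155894 (minus strand, 3' UTR), with a fold of 5.89, a log2 fold change of -4.61 and 2 motif sites.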

How the data were processed

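Cells of DLD1, fragmented RNA and input libraries are described above; the ac4C immunoprecipitated libraries enter only through the authors' deposited peak table. Per the submitters' processing notes, cutadapt 2.5, HISAT2 2.1.0 and HOMER 4.10.4 were used, with no role given, and the builds GRCh38 and GRCm38 are both named. What counted the fragments, under which annotation, and what called the peaks is not given in the sources used here.

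The authors deposited gene levels as FPKM. Over the 2399 genes above 0 in all 6 input libraries, the median ratio to a gene's geometric mean was 1.14 in every library, so the deposited values already carry scaling by median ratios. Whole fragments were recovered from the FPKM steps of small RNAs with RefSeq lengths and, for each gene, the smallest length giving whole numbers within a relative tolerance of 1e-06. All 15014 genes above 0 came out whole, which says little, as lengths were chosen for it; 9 of 9 mitochondrial mRNA lengths equalled RefSeq. Fragment totals are therefore lower estimates, and fragments are not independent molecules, since PCR copies were not marked.

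In the peak table deposited by the authors, per the file headers, each peak has a p-value and a fold enrichment (a ratio), and a differential test's log2 fold change and FDR. Peaks were read as GRCh38: 98.4% of the 2190 peaks with a RefSeq gene lay within it. All 1167 single-block peaks had sizes equal to end minus start, so positions are printed counting from 1.

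Levels were compared with limma 3.58.1 (R 4.3.3; lmFit, eBayes with trend) on log2(FPKM + 1). Genes needed an average FPKM of 1 or more, with Benjamini-Hochberg adjustment over all 10517 genes and a threshold of 0.05. Partner ratios were compared with exact two-sided tests over libraries. Same-numbered libraries did not deviate together (correlations of 0.00, -0.02 and 0.01), so the replicate block is an alternative only. All 10 members were named, with NAT10, the most abundant member of each list that had none past the test, and the 3 genes of most like pattern for ANXA2 and S100A10; other genes named were chosen after their values were seen. The members and lists were chosen with earlier results of these data known. Tests ran over input columns, of which 0 stayed unmapped.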

Additional observations from a re-analysis of the deposited data

How the results depend on the processing

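No member passed limma in any of 19 alternatives, at 0 to 2 members with an unadjusted p under 0.05. ANXA1, ANXA4, S100A6 and S100A11 kept their direction in each that tested them. S100A4 turned to 0.019 with a pseudocount of 0.1, 0.060 with 0.01, 0.039 after quantile normalization and 2.25 with both libraries labelled shNAT10 with NAT10 above shNC left out. With each replicate left out, differences ran from -1.64 to 1.00 for ANXA2, -0.046 to 1.46 for ANXA3, -2.13 to 0.68 for ANXA5, -2.26 to 1.46 for S100A4, -0.10 to 1.30 for S100A10 and -2.29 to 1.11 for S100A14. ANXA2 over S100A10 then ran from -1.58 to 0.04 within libraries and from -2.94 to 1.10 between hairpins. In fragments, undivided by length, the mean ratio was 1.37 for ANXA2 over S100A10 and 0.77 for ANXA1 over S100A11.

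Over all genes limma called 20, and 7 with a pseudocount of 0.01, 10 with a mean FPKM of at least 5, 0 without a filter (340 at an unadjusted p under 0.05) and 0 without trend (480). With each replicate left out it called 1 to 34, with both libraries named above left out, which leaves 1 shNAT10-labelled library assumed to vary as shNC does, 0 (1139 unadjusted), and by voom on recovered fragments 95. The cause of these changes was not tested. Median ratio scaling changed no value of a member, as the deposited values already carry it. The replicate block called 21 genes and 0 members, and the exact test within replicate numbers gave p = 1 for ANXA2 over S100A10 and p = 0.25 for ANXA1 over S100A11, the smallest it allows being 0.25. Mean FPKM of at least 5 left ANXA3 and ANXA4 untested. Leaving out both libraries, plain library sums, voom and fragment ratios were chosen after seeing the data.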

Other observations

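Some S100 genes outside the members were high in 1 library, unlike S100P, which was high in 2. S100A16 had FPKM 73.6 in shNC replicate 2, from 411 fragments, and at most 0.423 elsewhere. S100A13 had 25.6 in shNC replicate 1 and at most 7.16 elsewhere. S100B, best known in glia, was at 21.3 in shNAT10 replicate 3 and at 0 in the other 5 libraries. S100A8, a neutrophil protein, was above 0 in 1 library, from 4 fragments. All 4 were picked with their values in view, as were ANXA6 and AHNAK.

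ANXA6, a large annexin of endosomes and the plasma membrane, had 5.77, 3.25 and 21.0 in shNC and 1.06, 0.492 and 1.54 in shNAT10-labelled libraries, with no overlap between groups, and did not pass (log2 difference -2.11, limma adjusted p = 0.754). AHNAK, a giant scaffold that binds the complex of ANXA2 and S100A10, had 35.4, 36.1 and 41.3 against 23.8, 26.2 and 29.8, also with no overlap. Its log2 difference of -0.49 (limma adjusted p = 0.921) was that of the median tested gene, -0.49. Of all tested genes 9.61% had no overlap, 6.72% in this direction. Other binding partners, CAPN1, CAPNS1 and TSG101, were higher in shNAT10-labelled libraries without overlap, as were 2.89% of all tested genes.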
